A study of Mus musculus with 7 samples.

Results

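The transcripts described here encode 10 lysosomal proteases, chosen by name from the 55450 genes of the count table: the cathepsins Ctsa, Ctsb, Ctsc, Ctsd, Ctsh, Ctsk, Ctsl, Ctss and Ctsz, and legumain (Lgmn). Ctss, Ctsc and Ctsz were set apart as the myeloid genes, and Ctsk, Ctsl and Ctsb as the stromal genes. These names are an assignment made for the comparison, and bulk libraries do not show which cells made each transcript. All 10 had counts in every library and all 10 entered the test. They were measured by bulk RNA sequencing of dorsal skin from 24-month-old male C57BL/6 mice, one library per mouse. Hair was clipped and removed with a depilatory in both groups, and the skin was then treated for 5 days under a semi-occlusive dressing. The ABT-263 group of 3 mice (476, 477 and 478) received 5 µM ABT-263 (navitoclax, an inhibitor of anti-apoptotic Bcl-2 family proteins) dissolved in DMSO, and the control group of 4 mice (480 to 483) received DMSO alone. The question was how the skin transcriptome of old mice differed after ABT-263, a compound used to remove senescent cells. No untreated skin and no skin of another age was analysed here, so each difference is one between ABT-263 and its vehicle.

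Lysosomal proteases are made as inactive precursors, tagged with mannose 6-phosphate in the Golgi, carried to acidic compartments and activated there by cleavage. Most cathepsins are cysteine proteases of the papain family, Ctsd is an aspartic protease, Ctsa is a serine carboxypeptidase, and legumain cuts after asparagine and processes other cathepsins. In skin they serve protein turnover in every cell, antigen processing and granule protease activation in leukocytes, collagen breakdown by fibroblasts, and cornification and pigment handling in the epidermis.

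Total counts lay between 20344364 and 43562330 per library, and each ABT-263 library was larger than each DMSO library. ABT-263 mouse 476 stood apart. Its Spearman correlations with the other 6 libraries, across genes, were 0.881 to 0.961, against 0.930 to 0.987 among the other 15 pairs, so values without it are given beside the results that it moves most. Levels are counts per 1000000 counts of the library (CPM) after TMM normalisation, which scales each library for its total and composition. Of 17959 genes tested with edgeR's quasi-likelihood test, 12.4% were higher and 11.7% were lower with ABT-263 at a Benjamini-Hochberg adjusted p under 0.05.

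For 8 of the 10 genes, RefSeq promoter windows on GRCm38.p6 were at hand (250 bases before to 50 bases after the annotated start), while Ctsb and Ctsh had no entry. The letters CACGTG, the core of the element bound by TFEB, a transcription factor of lysosomal genes, stood on either strand (they read the same on both) in 4 of 8 windows, against 8.09% of 27025 genes with a window. The 4 genes were Ctsa, Ctsd, Ctsl and Lgmn, and 0 of the 3 myeloid genes had it. A stretch of 30 bases around one such match in each gene is shown because the letters divide the 8 genes: of those with a window, Ctss, Ctsc, Ctsk and Ctsz lacked them. Capitals mark the matched letters, 5′ to 3′ on the gene's strand.
Ctsa, chr2:164833749-164833778, + strand: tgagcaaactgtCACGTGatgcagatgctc
Ctsd, chr7:142387908-142387937, - strand: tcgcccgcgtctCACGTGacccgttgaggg
Ctsl, chr13:64370739-64370768, - strand: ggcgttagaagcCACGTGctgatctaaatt
Lgmn, chr12:102439124-102439153, - strand: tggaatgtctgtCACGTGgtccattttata
Such a match describes the letters of the window and says nothing of whether a factor was bound.

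Ctsk and Ctss are neighbours on chromosome 3, both on the + strand, with 17424 bases between them. Their upstream windows are shown because these adjacent genes, one taken as stromal and one as myeloid, parted in mouse 476. The ratio of Ctss to Ctsk in normalised counts was 4.12 in that mouse alone. It was 0.741 and 0.691 in ABT-263 mice 477 and 478, within the DMSO range of 0.481 to 0.761. Capitals mark the core of the interferon-stimulated response element, searched on both strands as GAAA, any 2 bases, and GAAA again. It occurred in Ctss alone among the 8 genes, and in 3.99% of all genes with a window.
Ctsk, chr3:95498960-95499209, + strand: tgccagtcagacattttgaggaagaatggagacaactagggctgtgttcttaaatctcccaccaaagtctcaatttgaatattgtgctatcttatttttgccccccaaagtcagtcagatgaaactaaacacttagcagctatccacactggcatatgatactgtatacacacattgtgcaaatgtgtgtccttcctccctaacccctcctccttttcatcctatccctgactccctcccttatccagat
Ctss, chr3:95526536-95526785, + strand: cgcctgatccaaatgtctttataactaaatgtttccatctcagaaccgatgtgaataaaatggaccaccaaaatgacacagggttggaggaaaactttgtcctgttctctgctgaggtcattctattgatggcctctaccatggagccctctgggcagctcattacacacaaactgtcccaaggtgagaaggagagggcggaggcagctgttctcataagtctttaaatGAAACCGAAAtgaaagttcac
The letters GAGGAAGT, of the type bound by the myeloid factor PU.1, were also searched on both strands, and stood in 2 of 8 windows (Ctsc and Ctss) against 3.69% of all genes with a window.

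With ABT-263, 5 of the 10 genes were higher (Ctss, Ctsc, Ctsh, Ctsk and Ctsb), against 12.4% of all genes tested, and 0 were lower, against 11.7%. The 10 genes were chosen with earlier results of these data known, so this contrast is a description and no test. At an unadjusted p under 0.05 the same test gave 7 higher and 0 lower, and DESeq2 gave 6 and 0. The estimate was positive for 9 genes and negative for Ctsd, with a median log2 fold change of 0.91 over the 10 and 0.00 over all genes tested. In 7 of 10 genes every ABT-263 mouse lay above every DMSO mouse, as in 18.7% of all genes tested. The calls for Ctsc and Ctsh held with each mouse left out in turn, whereas those for Ctss, Ctsk and Ctsb did not. In bulk skin, more cells of a type and more RNA per cell cannot be told apart.

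**Figure D1:**
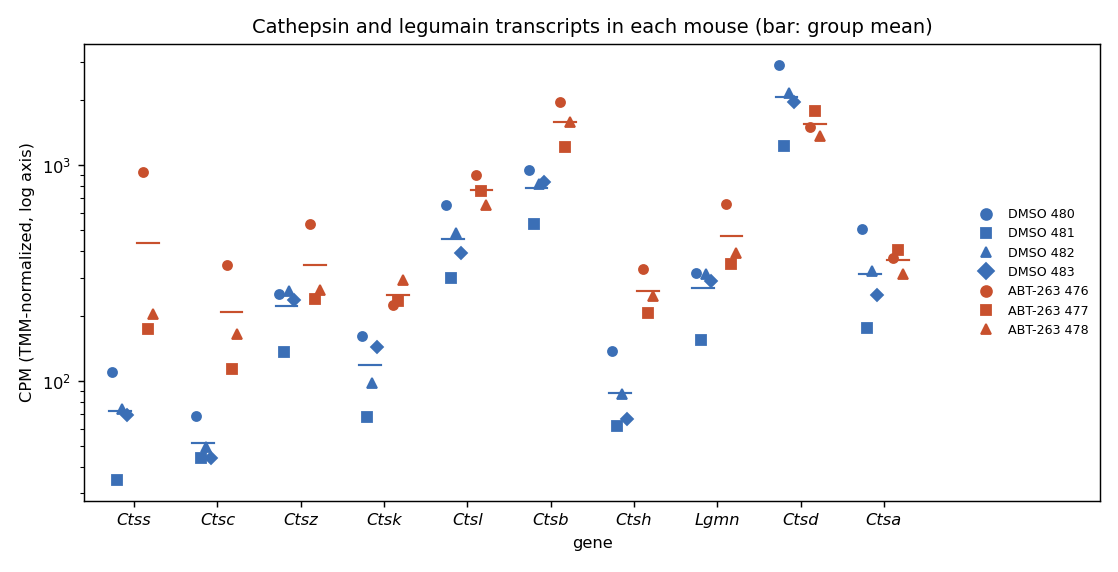
Level of each of the 10 transcripts in each mouse, in TMM-normalised CPM on a log axis, with DMSO mice in blue and ABT-263 mice in red; bars are group means. All ABT-263 points lie above all DMSO points for Ctss, Ctsc, Ctsk, Ctsl, Ctsb, Ctsh and Lgmn, and the ABT-263 points of Ctss reach from 174 to 922 CPM.

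Gene positions below are those of GENCODE M21 on GRCm38. Ctss (ENSMUSG00000038642, chr3:95526786-95556403) encodes cathepsin S, which trims the invariant chain of MHC class II in antigen-presenting cells. Its levels were 109.9, 34.6, 74.2 and 69.2 CPM in DMSO mice 480 to 483, and 922, 174 and 203 CPM in ABT-263 mice 476 to 478. The groups did not overlap, and mouse 476 was 4.90 times the mean of the other 2 ABT-263 mice. The difference was 2.59 on the log2 scale (log2 fold change, ABT-263 against DMSO, SE 0.65, n = 4 and 3, edgeR adjusted p = 0.0284). Without mouse 476 it was 1.39 with an adjusted p of 0.0609, and without DMSO mice 481, 482 and 483 the adjusted p was 0.0563, 0.0695 and 0.0706. The direction thus held in each fit, while the call was kept only in the 3 fits without 480, 477 or 478.

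Ctsc (ENSMUSG00000030560, chr7:88278085-88310888) encodes cathepsin C, or dipeptidyl peptidase I, which activates the serine proteases of neutrophil, mast cell and cytotoxic lymphocyte granules. Its levels were 68.3, 44.0, 49.3 and 43.6 CPM in the DMSO mice and 343, 114 and 165 CPM in the ABT-263 mice, again without overlap. The DMSO mice lay close together for this gene, and mouse 476 was 2.46 times the mean of mice 477 and 478. A log2 fold change of 2.01 (SE 0.36, edgeR adjusted p = 0.0114) was estimated, and it stayed between 1.45 and 2.34, with adjusted p between 0.00850 and 0.0407, as each mouse was left out.

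Ctsz (ENSMUSG00000016256, chr2:174427493-174439039), the third myeloid gene, encodes cathepsin Z, a carboxypeptidase also called cathepsin X that is abundant in monocytes and macrophages. It was at 253, 136, 259 and 235 CPM in the DMSO mice and at 533, 240.2 and 262 CPM in the ABT-263 mice. Mouse 476 alone stood clear of the DMSO range, and mouse 477 lay below 2 of the DMSO mice. An estimate of 0.64 on the log2 scale (SE 0.33, edgeR adjusted p = 0.185) did not pass the test, and it was 0.19 (adjusted p = 0.667) without mouse 476. The higher group mean of Ctsz thus rested on 1 library.

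Ctsk (ENSMUSG00000028111, chr3:95499256-95509362) encodes cathepsin K, the collagenase of osteoclasts, which dermal fibroblasts can also make. It was at 162, 67.6, 97.5 and 144 CPM in the DMSO mice and at 224, 234 and 293 CPM in the ABT-263 mice. The groups did not overlap, and here mouse 476 was the lowest of the ABT-263 mice, at 0.848 times the mean of the other 2. EdgeR gave a log2 fold change of 1.09 (SE 0.29, adjusted p = 0.0311). This lay between 0.89 and 1.28 as each mouse was left out, but the adjusted p rose to 0.0853 and 0.0545 without DMSO mice 482 and 483, and to 0.0580, 0.0525 and 0.0985 without ABT-263 mice 476, 477 and 478.

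Ctsb (ENSMUSG00000021939, chr14:63122462-63145923) encodes cathepsin B, a broadly expressed endopeptidase and dipeptidase. Levels were 949, 533, 815 and 832 CPM in the DMSO mice and 1947, 1209.8 and 1588 CPM in the ABT-263 mice, and the groups did not overlap. This was the largest difference of group means in CPM among the 5 genes called. On the log2 scale the difference was 1.02 (SE 0.25, edgeR adjusted p = 0.0265), with a range of 0.84 to 1.204 as each mouse was left out. The adjusted p was 0.0501, 0.0714 and 0.0639 without DMSO mice 481, 482 and 483, and 0.0805 and 0.0711 without ABT-263 mice 476 and 478. Exons of Fdft1 on the opposite strand cover 12.8% of the exonic bases of Ctsb, and the counting used strand.

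Ctsl (ENSMUSG00000021477, chr13:64359337-64370890) encodes cathepsin L, an endopeptidase that is required for normal hair follicle cycling and epidermal turnover in mice. It was at 652, 299, 483 and 390 CPM in the DMSO mice and at 893, 759 and 653 CPM in the ABT-263 mice. The groups touched but did not overlap, since DMSO mouse 480 at 651.8 CPM and ABT-263 mouse 478 at 652.9 CPM were almost equal. Its log2 fold change of 0.75 (SE 0.27, edgeR adjusted p = 0.0739) did not pass the test. It was 0.97 with an adjusted p of 0.0257 without mouse 480, and the DESeq2 Wald test gave an adjusted p of 0.0368. In GENCODE M21, 6.09% of the exonic bases of Ctsl overlap the processed pseudogene Gm49230 on the same strand, so its count is less certain.

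Ctsh (ENSMUSG00000032359, chr9:90054152-90076089) encodes cathepsin H, an aminopeptidase found in lung epithelium, leukocytes and many other cells, and it was assigned to neither compartment. It was at 137, 61.7, 87.1 and 66.6 CPM in the DMSO mice and at 328, 206 and 246 CPM in the ABT-263 mice. The lowest ABT-263 mouse was well above the highest DMSO mouse, and mouse 476 was 1.45 times the mean of the other 2. Its log2 fold change was 1.56 (SE 0.30, edgeR adjusted p = 0.0124) and lay between 1.37 and 1.85, with adjusted p between 0.00774 and 0.0428, as each mouse was left out.

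Lgmn (ENSMUSG00000021190, chr12:102394084-102439813) was at 315, 153.5, 311 and 290.2 CPM in the DMSO mice and at 662, 348 and 389 CPM in the ABT-263 mice. The groups did not overlap, but 3 of the 4 DMSO mice lay between 290.2 and 315 CPM, not far below the lowest ABT-263 mouse. With a log2 fold change of 0.80 (SE 0.31, edgeR adjusted p = 0.0933) legumain did not pass the test, and the estimate was 0.47 with an adjusted p of 0.310 without mouse 476.

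Ctsd and Ctsa are the members outside the cysteine proteases. Ctsd (ENSMUSG00000007891, chr7:142375911-142388038) encodes cathepsin D, an aspartic endopeptidase of most cells. It was at 2910.5, 1223, 2156 and 1947 CPM in the DMSO mice and at 1497, 1778 and 1357 CPM in the ABT-263 mice, all of the latter within the DMSO range. Its log2 fold change was -0.42 (95% interval -1.10 to 0.27, edgeR adjusted p = 0.333), an interval that holds differences in both directions. In GENCODE M21, 34.4% of the exonic bases of Ctsd are shared with Gm49369 on the same strand, and reads there can be split or lost. Ctsa (ENSMUSG00000017760, chr2:164832873-164841032) encodes cathepsin A, the protective protein that holds beta-galactosidase and neuraminidase in a complex. It was at 504, 175, 321 and 249 CPM in the DMSO mice and at 370.5, 402 and 313 CPM in the ABT-263 mice, also within the DMSO range. Its log2 fold change was 0.21 (95% interval -0.54 to 0.97, edgeR adjusted p = 0.661).

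**Figure D2:**
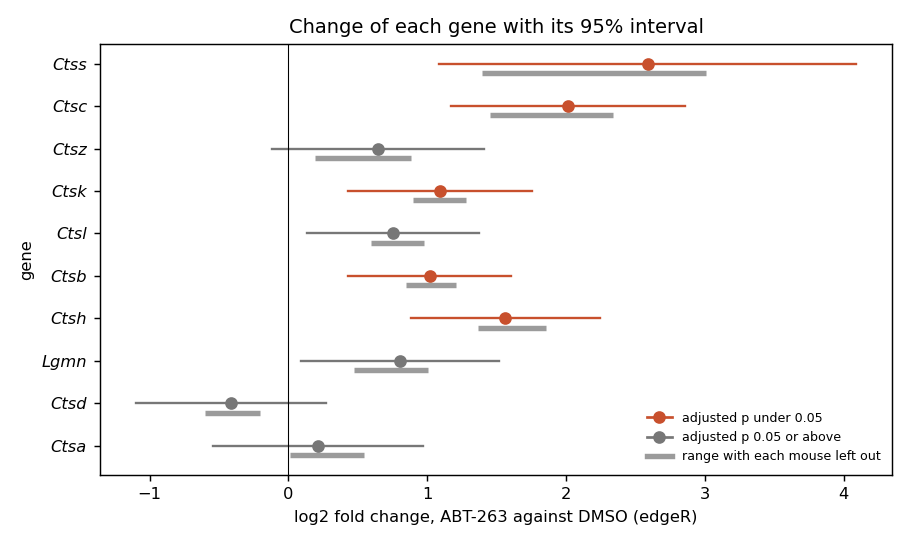
Log2 fold change of each transcript, ABT-263 against DMSO, by edgeR, with its 95% interval (thin line) and the range of estimates as each mouse was left out (thick grey line). Red marks an adjusted p under 0.05, which Ctss, Ctsc, Ctsk, Ctsb and Ctsh reached, and the interval of Ctss, from 1.08 to 4.09, is the widest.

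The same mice were low or high across the genes. DMSO mouse 481 was the lowest DMSO mouse in 9 of 10 genes (Ctsc was lowest in 483), and mouse 480 was the highest in 9 of 10 (Ctsz was highest in 482). Summed over the 10 genes, mouse 481 had 2726 CPM and mouse 480 had 6059.6 CPM, a range wider than that of the ABT-263 mice, which had 7718, 5466 and 5469 CPM. Mouse 476 was the highest of all 7 mice in 7 of 10 genes, mouse 478 in Ctsk, and DMSO mouse 480 in Ctsa and Ctsd.

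To compare levels between genes, CPM were divided by the length of the principal transcript. In CPM per kilobase, the order in DMSO skin was Ctsd (968 ± 326, SD, n = 4), Ctsl (231 ± 76.5), Ctsb (165 ± 37.2), Ctsz (153 ± 40.0), Lgmn (134 ± 38.5), Ctsa (85.7 ± 38.8), Ctsk (77.8 ± 28.4), Ctsh (54.5 ± 21.2), Ctss (53.1 ± 22.7) and Ctsc (20.6 ± 4.65). Ctsd stood clear of the others, since its lowest DMSO mouse, at 575 CPM per kilobase, lay above the highest DMSO mouse of Ctsl, at 331. From Ctsl to Ctss, the means of neighbours in this order differed by less than the larger of their SDs, apart from Lgmn and Ctsa. In ABT-263 skin Ctsd was still first (726 ± 101, n = 3), and Ctss moved from the ninth to the fourth place, at 319 ± 313 CPM per kilobase, an SD almost as large as the mean. That place rested on mouse 476: without it the mean of Ctss was 139 CPM per kilobase and its place the eighth, next to Ctsh at 140.0. With the summed length of all exons in place of the principal transcript, a choice added after the data were seen, Ctsl fell to the sixth place in DMSO skin (70.2 CPM per kilobase) and Ctss rose to the second in ABT-263 skin with mouse 476 included, while Ctsd stayed first in both groups.

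The make-up of the 10 transcripts was also compared. Ctsd made up 51.2%, 48.6%, 49.5% and 48.9% of the summed CPM per kilobase in DMSO mice 480 to 483, and 19.9%, 35.1% and 27.4% in ABT-263 mice 476 to 478. Every ABT-263 mouse thus had a lower share of Ctsd than every DMSO mouse, although the Ctsd level itself overlapped. With exon lengths summed, the shares were 53.9% to 57.8% and 22.8% to 41.5%. The shares of Ctsb, Ctsc, Ctsh, Ctsl and Ctss were higher in every ABT-263 mouse than in every DMSO mouse, and those of Ctsa, Ctsk, Ctsz and Lgmn overlapped. For Ctsl the groups were almost in contact, at 12.796% in DMSO mouse 481 and 12.797% in ABT-263 mouse 476. Shares of a whole are not independent of each other. The share of Ctss was 2.16% to 3.04% in the DMSO mice and 19.2%, 5.37% and 6.42% in mice 476, 477 and 478.

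**Figure D3:**
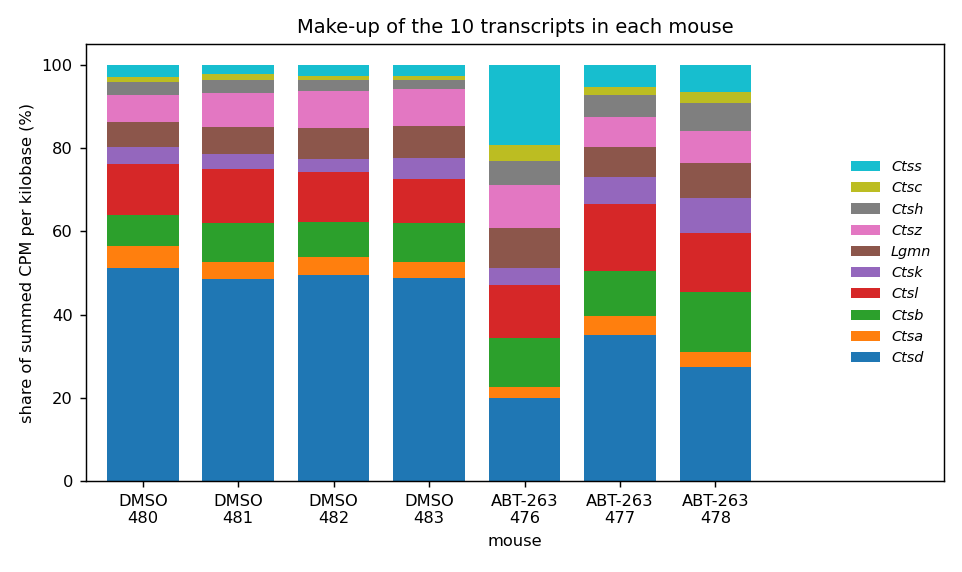
Share of each of the 10 transcripts in their summed CPM per kilobase, in percent, as a stacked bar for each mouse. The Ctsd segment at the bottom takes 48.6% to 51.2% in the DMSO mice and 19.9% to 35.1% in the ABT-263 mice, and the Ctss segment at the top is widest in mouse 476.

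The myeloid and stromal genes were set against each other within each mouse, as the mean log2 CPM of Ctss, Ctsc and Ctsz minus that of Ctsk, Ctsl and Ctsb. This difference was -1.91, -1.90, -1.78 and -2.01 in the DMSO mice and -0.40, -1.83 and -1.71 in ABT-263 mice 476, 477 and 478. Mouse 476 stood away from the DMSO mice, while mice 477 and 478 lay within or just above their range. The difference between group means was 0.59 with all mice and 0.13 without mouse 476. For the adjacent genes Ctss and Ctsk, the ratio of CPM was 0.681, 0.512, 0.761 and 0.481 in the DMSO mice, 4.12 in mouse 476, and 0.741 and 0.691 in mice 477 and 478. In mice 477 and 478, then, the ratio lay within the DMSO range, and Ctss exceeded Ctsk in mouse 476 alone.

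Markers of some cell types also differed between the groups, and those of others did not. Of 12 macrophage markers tested, 7 were higher and 0 lower with ABT-263 (edgeR), against 12.4% and 11.7% of all genes tested. Their summed level was 478 to 1369 CPM in DMSO skin and 5055, 1615 and 2209 CPM in mice 476, 477 and 478. The macrophage genes Csf1r (35.8 to 72.1 CPM in DMSO and 115 to 264 CPM in ABT-263 skin) and Adgre1 (5.06 to 14.4 CPM and 17.9 to 78.9 CPM) were among these markers. In 9 of the 12 every ABT-263 mouse lay above every DMSO mouse, as in 18.7% of all genes tested. The others were C1qa and Aif1, within the DMSO range in mice 477 and 478, and Mertk. Mertk was at 14.9 to 16.9 CPM in the DMSO mice and at 25.4, 11.8 and 9.52 CPM in mice 476, 477 and 478. Of 6 neutrophil markers tested, 3 were higher, with sums of 100.4 to 1822 CPM and 5098 to 8377 CPM. Most of that sum was S100a8 and S100a9 (1714 and 3355 CPM in mouse 477), which keratinocytes can also make. In mice 477 and 478, Mmp8 (0.807 and 1.29 CPM) and Ly6g, which defines neutrophils in mice (0.101 and 0.172 CPM), lay within the DMSO range, and both were high in mouse 476 alone (59.1 and 13.98 CPM). In the same 2 mice Csf3r (12.4 and 10.7 CPM), Cxcr2 (13.6 and 14.2 CPM) and Retnlg (2.09 and 3.03 CPM) lay above every DMSO mouse. Their highest DMSO values were 3.72, 12.7 and 1.03 CPM. In 5 of the 6 tested markers every ABT-263 mouse lay above every DMSO mouse, as in 18.7% of all genes tested. Retnlg, with 2 to 25 reads in the DMSO libraries, could pass the filter on low counts only through the ABT-263 libraries. Its part in these neutrophil counts is therefore not read as a result. Of 10 fibroblast markers 3 were higher (30.0%, against 12.4% of all genes tested), with sums of 4193 to 5963 CPM and 6613 to 9580 CPM. Keratinocyte markers, which define skin, were present in each library at 19710.2 to 68014 CPM in sum, and 0 of 7 passed the test (0 also at an unadjusted p under 0.05 and by DESeq2).

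The level of each gene relative to its marker list was then compared, as log2 of its CPM over the summed CPM of the list, by an exact two-sided permutation test over the 7 mice, which cannot give a p below 0.0571. Over the macrophage sum, Ctss was -3.59, -3.79, -4.21 and -3.84 in the DMSO mice and -2.45, -3.22 and -3.45 in the ABT-263 mice, higher in each ABT-263 mouse by 0.82 on average (exact p = 0.0571, adjusted over 6 ratios p = 0.114) and by 0.52 without mouse 476. Ctsz went the other way, at -2.39, -1.82, -2.40 and -2.07 in the DMSO mice and -3.25, -2.75 and -3.08 in the ABT-263 mice, a difference of -0.85 (exact p = 0.0571, adjusted p = 0.114). Neither ratio overlapped between the groups, and both reached the smallest p that the test can give. Most of the macrophage sum in mouse 480 was C1qa, C1qb and C1qc (402, 271 and 208 of 1322 CPM). The listed markers differed unevenly. C1qa (122 to 421 CPM in DMSO and 306 to 850 CPM in ABT-263 skin) overlapped between groups, while Lyz2 (83.1 to 233 CPM and 323 to 1576 CPM) did not. Ratios to single macrophage markers were not tested, so these differences hold for the summed list only. With 7 mice no ratio could pass the threshold. Ctsc overlapped between groups relative to the same list, with a difference of 0.44 (exact p = 0.229).

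Relative to the fibroblast sum, Ctsk was -5.21, -5.95, -5.55 and -5.27 in the DMSO mice and -4.89, -4.90 and -5.03 in the ABT-263 mice. All 3 ABT-263 mice were above all 4 DMSO mice, by 0.56 on average (exact p = 0.0571, adjusted p = 0.114). Most of the fibroblast sum was Col1a1 and Col1a2 (2715 and 1626 of 5963 CPM in mouse 480). The listed markers differed unevenly. In 4 of the 10 every ABT-263 mouse lay above every DMSO mouse, as in 18.7% of all genes tested. These were Pdgfra (15.4 to 24.7 CPM in DMSO and 36.3 to 107 CPM in ABT-263 skin), Lum (55.9 to 71.3 CPM and 121 to 288 CPM), Col1a2 (1165 to 1626 CPM and 1781 to 3081 CPM) and Col6a1 (81.2 to 138 CPM and 154 to 307 CPM). Thy1 was among those that overlapped (143 to 251 CPM and 191 to 215 CPM). Ratios to single markers were not tested. Ctsb differed by 0.42 (exact p = 0.171) and Ctsl by 0.20 (exact p = 0.686), both with overlap, and without mouse 476 these values were 0.15 and -0.021. The part of cell numbers in these differences was not tested.

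**Figure D4:**
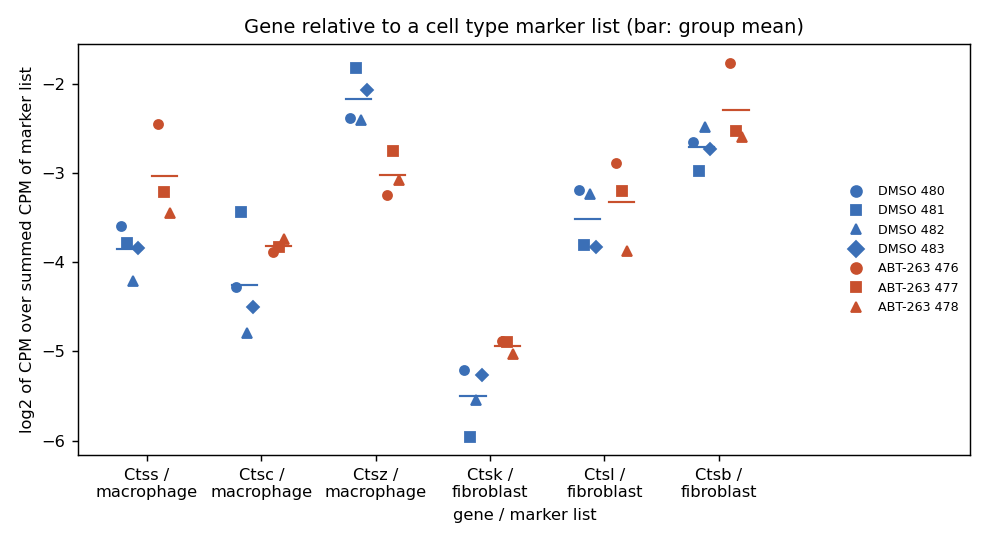
Level of each myeloid gene relative to the macrophage markers and of each stromal gene relative to the fibroblast markers, as log2 of CPM over the summed CPM of the list, per mouse, with bars at group means. The ABT-263 mice lie above the DMSO mice for Ctss and Ctsk, and below them for Ctsz. Those of Ctsc lie among the DMSO mice, mouse 476 lies above them for Ctsb and Ctsl, and mouse 478 lies below them for Ctsl.

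Most other cathepsins were at low levels or had no counts. Ctsf was the exception, with a DMSO mean of 80.5 CPM, against 72.0 CPM for Ctss and 51.3 CPM for Ctsc. Of 14 further cathepsin genes 8 had no count in any library, and 4 passed the filter on low counts, of which 1 was higher and 0 lower (at an unadjusted p under 0.05 and by DESeq2, 1 and 1). The called share, 25.0%, was near the 24.2% of all genes tested in either direction, so the count is no result about these genes. The higher gene was Ctso, a little-studied papain-family enzyme, at 4.83, 5.73, 7.44 and 7.11 CPM in the DMSO mice and 26.6, 10.4 and 19.9 CPM in the ABT-263 mice (log2 fold change 1.596, SE 0.31, edgeR adjusted p = 0.0131). Its call was kept with each mouse left out. Ctsf, another cysteine cathepsin, named after its values were seen, was at 78.1 to 83.2 CPM in the DMSO mice and at 49.95 to 68.7 CPM in the ABT-263 mice, a log2 fold change of -0.43 with an adjusted p of 0.0506 (0.0339 to 0.121 under the other settings and 0.0567 to 0.159 with a mouse left out).

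Endogenous inhibitors, the cystatins, stefins and serpins that block cysteine cathepsins, mostly did not pass the test. Of 15 listed, 14 were tested, 2 were higher and 0 were lower (3 and 0 at an unadjusted p under 0.05, 2 and 0 by DESeq2). The estimates were positive for 11 and negative for 3, with a median log2 fold change of 1.196. The share called higher was 14.3%, near the 12.4% of all genes tested. Cst3, or cystatin C, the main secreted inhibitor of these enzymes, was at 801 to 1126 CPM in the DMSO mice and at 783 to 868 CPM in the ABT-263 mice (log2 fold change -0.31, edgeR adjusted p = 0.239). The genes called were Stfa2l1, a stefin A gene of myeloid cells (0.655 to 1.18 CPM in DMSO and 90.3, 13.01 and 2.99 CPM in mice 476, 477 and 478, log2 fold change 5.14, adjusted p = 0.0180), and Serpinb3a, an epithelial serpin (0.59 to 18.2 CPM and 66.9 to 145 CPM, log2 fold change 3.77, adjusted p = 0.0319). Stefin A genes are near-identical copies, and the split of reads among them is uncertain. The estimate for Stfa2l1 was 3.00 without mouse 476, and its call was lost without DMSO mouse 482 (adjusted p = 0.0502), and that for Serpinb3a without each of mice 482, 483, 476, 477 and 478 (adjusted p up to 0.127).

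Of the 6 genes of lysosomal sorting, 2 were higher and 0 lower (4 and 0 at an unadjusted p under 0.05, 3 and 0 by DESeq2), and all 6 estimates were positive, with a median of 0.50. The called share was 33.3%, where 12.4% of all genes tested were higher and 24.2% were called in either direction. M6pr, the cation-dependent mannose 6-phosphate receptor, which carries these enzymes from the Golgi, was at 47.6, 41.3, 41.7 and 41.5 CPM in the DMSO mice and at 117, 77.4 and 87.5 CPM in the ABT-263 mice. The DMSO mice were nearly equal, and the log2 fold change of 1.13 (SE 0.16, edgeR adjusted p = 0.00641) was past the threshold with each mouse left out and under each other setting. Igf2r, the other mannose 6-phosphate receptor, was at 46.8 to 59.6 CPM and 58.2 to 78.2 CPM (log2 fold change 0.46, adjusted p = 0.0567, but 0.0239 without mouse 477 and 0.0485 by DESeq2). Gnptg, a subunit of the enzyme that makes the tag, was at 14.4 to 16.9 CPM and 20.5 to 24.3 CPM (0.53, adjusted p = 0.0275), a call lost without mice 482, 483, 476 or 478 (adjusted p up to 0.0812).

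Among the 4 MiT/TFE factors, which switch on lysosomal genes, 1 was higher and 1 lower. Of all genes tested, 12.4% were higher and 11.7% lower, and with only 4 genes these counts are no result about the factors as a group. Tfeb was at 54.2, 62.6, 59.9 and 67.6 CPM in the DMSO mice and at 50.6, 37.9 and 43.2 CPM in the ABT-263 mice, lower in each (log2 fold change -0.48, SE 0.14, edgeR adjusted p = 0.0416). That call was lost without mice 481, 482, 483, 477 or 478 (adjusted p up to 0.130), and the estimate was -0.28 with an adjusted p of 0.283 once trends on length and GC content were removed. Tfec, which is expressed in macrophages, was at 0.211 to 1.13 CPM in the DMSO mice and at 11.7, 2.14 and 2.99 CPM in mice 476, 477 and 478 (2.99, adjusted p = 0.0235), a call lost without mouse 483 or 476 (adjusted p up to 0.0636), and its estimate was 1.87 without mouse 476. The partners of Ctsa in its complex did not pass the test. For Glb1, the beta-galactosidase whose activity is used to stain senescent cells, the estimate was 0.00 on the log2 scale (SE 0.16, adjusted p = 0.985). For Neu1, the neuraminidase, it was 0.37 (SE 0.22, adjusted p = 0.241).

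Substrates and downstream steps were listed for Ctsc and Ctss. Of 6 granule proteases activated by Ctsc, 4 passed the filter on low counts. Among them the granzymes Gzmb (0.0843 to 0.327 CPM in DMSO and 7.90, 0.807 and 0.795 CPM in mice 476, 477 and 478) and Gzma (at most 0.368 CPM and 8.37, 0.529 and 0.988 CPM) were highest in mouse 476. Both had fewer than 10 reads in each DMSO library (2 to 8 for Gzmb and 0 to 9 for Gzma), so they passed the filter only through the ABT-263 libraries and had to differ. Their calls (log2 fold change 3.89 with an edgeR adjusted p of 0.0275, and 3.97 with 0.0445) are therefore not read as a result about the substrates. The estimates were 1.93 and 1.89 without mouse 476, and the calls were lost without mice 481, 482, 483 or 476 for Gzmb (adjusted p up to 0.0752) and without any mouse but 477 for Gzma (adjusted p up to 0.205). Of the 8 genes of class II presentation 2 were higher and 0 lower (8 and 0 at an unadjusted p under 0.05 and by DESeq2), and all 8 estimates were positive, with a median of 1.41. The called share was 25.0%, where 12.4% of all genes tested were higher and 24.2% were called in either direction. The 2 genes called were Ciita, the class II transactivator (4.83 to 7.86 CPM and 36.2, 8.49 and 12.8 CPM, 1.65, adjusted p = 0.0394), and H2-Eb1, a class II beta chain (115 to 253 CPM and 1121, 237 and 346 CPM, 1.76, adjusted p = 0.0487). Without mouse 476 the estimates were 0.81 and 0.80. Ciita lost its call without any mouse but 477 (adjusted p up to 0.0984), and H2-Eb1 without mice 481, 482, 483, 476 or 478 (adjusted p up to 0.126). Cd74, the invariant chain that Ctss trims, was at 406 to 908 CPM in the DMSO mice and at 2905, 734 and 849 CPM in mice 476, 477 and 478 (1.37, adjusted p = 0.0880, and 0.0219 by DESeq2, but 0.46 with an adjusted p of 0.376 without mouse 476), so that outside mouse 476 it lay within the DMSO range.

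The V-ATPase, the proton pump that acidifies lysosomes, had 18 subunit genes tested, of which 2 were higher and 1 lower, with a median log2 fold change of -0.12. Those called in either direction made up 16.7% of the list, below the 24.2% of all genes tested, so the counts are no result about the pump as a whole. Atp6v0c, the ring subunit of the membrane sector, was at 28.4, 17.3, 21.97 and 18.7 CPM in the DMSO mice and at 50.9, 42.5 and 37.8 CPM in the ABT-263 mice (1.02, SE 0.20, edgeR adjusted p = 0.0124), and its call was kept with each mouse left out. Atp6ap2, an accessory subunit, was higher by 0.56 (adjusted p = 0.0275), a call lost without mice 481, 482, 483, 476 or 478 (adjusted p up to 0.0801). Atp6v1f, of the catalytic sector, was lower, at -0.48 (adjusted p = 0.0342), a call lost without any mouse but 481 (adjusted p up to 0.112).

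**Figure D5:**
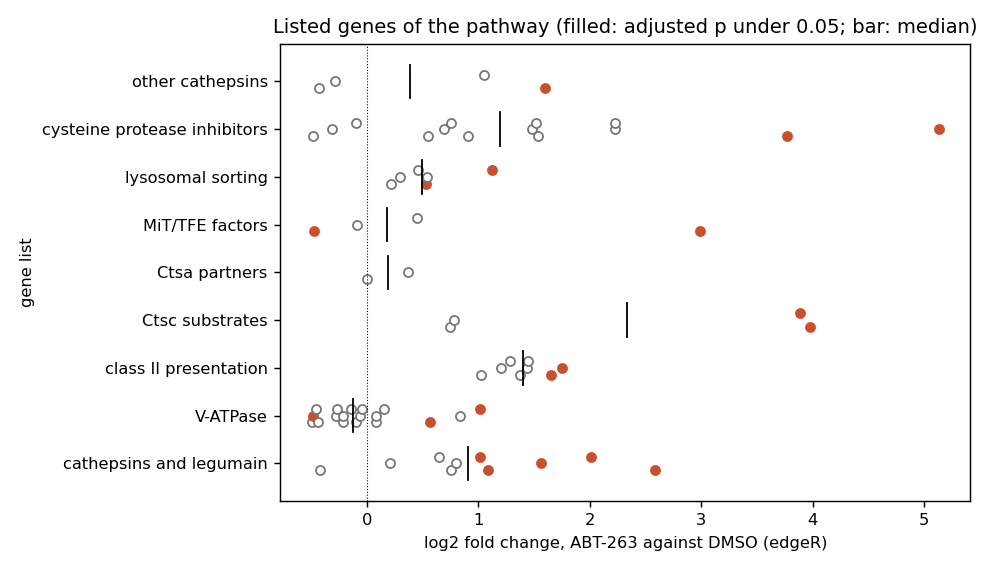
Log2 fold change, ABT-263 against DMSO, by edgeR, of each tested gene of the lists around the 10 proteases (points), with the median of each list (bar). Filled points had an adjusted p under 0.05, and the V-ATPase points gather around 0 while those of class II presentation all lie above it.

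The genes whose profile over the 7 mice was nearest to that of each protease were found by the root-mean-square difference of log2 CPM after centring each gene, among tested genes with a mean of at least 10 CPM. For Ctss they were Tmem252 (0.13), Hk3 (0.15) and Slc11a1 (0.17), the last 2 being genes of phagocytes. For Ctsc they were Icam1 (0.14), the endothelial and leukocyte adhesion molecule, Irf8 (0.14), a myeloid transcription factor, and Parp9 (0.14). For Ctsk they were the extracellular matrix genes Mmp2 (0.11), Thbs2 (0.15) and Col5a1 (0.16). For Ctsb they were Xbp1 (0.09), Lrp1 (0.09) and Serpinh1 (0.10), and for Ctsl Elk3 (0.12), Tie1 (0.12) and Il10rb (0.12). For Ctsh they were Tgfa (0.14), B3gnt3 (0.14) and Casp8 (0.15). For Ctsd, the gene with the lower mean, they were 1810037I17Rik (0.10), Ebp (0.10) and Gm9790 (0.12), and for Ctsa Vasn, Cldn5 and Ckap4 (0.10 each). For Ctsz they were Ifitm2 (0.09), Ftl1-ps1 (0.11) and Pla2g15 (0.11), and for Lgmn Sp100 (0.08), Pla2g15 (0.11) and Rab3il1 (0.11). Among the 10 proteases themselves the nearest pair was Ctsz and Lgmn (0.13), and Pla2g15, near to both, encodes a lysosomal phospholipase. The profiles did not follow the assignment to myeloid and stromal genes throughout. Ctsz was nearer to the stromal genes Ctsb (0.30), Ctsl (0.32) and Ctsk (0.55) than to the myeloid genes Ctsc (0.70) and Ctss (0.93).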

How the data were processed

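Bulk poly(A) RNA from dorsal skin of 7 mice was sequenced. The authors aligned reads to mm10 with STAR 2.7.9a and deposited raw counts per Ensembl gene (build 109), made with featureCounts (Subread 1.6.2) from uniquely aligned, same-strand proper pairs without mitochondrial genes. They also deposited variance-stabilized values on a log2 scale, made with DESeq2, used here only as an alternative. Total counts were 20344364 to 43562330 per library.

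Here the counts were normalised by TMM and tested with edgeR 4.0.16 (filterByExpr, quasi-likelihood test, two-sided, Benjamini-Hochberg adjustment over 17959 genes, threshold 0.05) in R 4.3.3, with DESeq2 1.42.0, other filters, scalings and limma 3.58.1 as alternatives. Genes for which DESeq2 gave no adjusted p were not counted as calls. In 3 simulations on these libraries, 91.5% to 95.5% of 200 genes changed by a log2 of 2 were recovered, with 5.45% to 5.67% of calls false. The simulations changed far fewer genes than were called here and held no library standing apart as mouse 476 did. Their rates need not hold for these calls, several of which had smaller changes. Positions, lengths and overlaps are from GENCODE M21 on GRCm38 (55190 of 55450 identifiers matched), an older annotation than the one counted, and promoter windows are from RefSeq on GRCm38.p6. The 10 genes and all lists were chosen with earlier results of these data known. Named beside the 10 were, in each list, up to 3 genes per direction with the smallest p among those called at a mean of at least 1 CPM, together with Cst3, Igf2r, M6pr, Glb1, Neu1, Cd74 and Tfeb, and for each protease the 3 genes of nearest profile. Other measurements of the study were not analysed here.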

Additional observations from a re-analysis of the deposited data

Results flagged for a closer look

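In 3 of 36 measures 1 DMSO mouse lay apart from the other 3, where chance flags about 1 in 20 groups, or 1.8 of 36. For Lgmn, DMSO mouse 481 was low, and its gap to the next mouse was 0.847 of the range of the 4. For the share of Ctsc in the summed CPM per kilobase, mouse 481 was high (1.49% against 0.934% to 1.02%), with a gap of 0.838 of the range. For the summed adipocyte markers, mouse 483 was high (1499 CPM against 574 to 729 CPM), with a gap of 0.833 of the range.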

How the results depend on the processing

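Only 4 and 3 mice were compared, the ABT-263 libraries were all larger, and mouse 476 decided several values, so each call rests on few animals. No paired analysis was possible because the groups share no replicate numbers. Of the 10 proteases 5 were called higher in the main fit and 2 to 6 with each mouse left out, while 4 to 6 were called under the other settings, which lost Ctss with every gene with a count kept (adjusted p = 0.100) and gained Ctsl by DESeq2. In these fits 0 were called lower. Calls over all genes numbered 4342, against 1735 to 4169 with a mouse left out, 5698 by DESeq2 and 3388 with every gene kept. As each mouse was left out, the called genes numbered 0 to 7 (higher) among the inhibitors, 1 to 3 in sorting, 0 to 1 higher and 0 to 1 lower among the MiT/TFE factors, 0 to 2 among the Ctsc substrates, 0 to 6 in class II presentation, and 1 to 2 higher and 0 to 1 lower in the V-ATPase. The myeloid minus stromal difference lay between 0.13 and 0.85. The Ctsl ratio to the fibroblast list lay between -0.021 (without mouse 476) and 0.47. Other settings moved list counts as follows. Of the further cathepsins 1 (Ctsf) was lower, in place of 0, by DESeq2, with DESeq2 size factors, with at least 10 counts in every library, with length and GC trends removed, and by limma on variance-stabilized values. With every gene kept, 0 inhibitors, 0 MiT/TFE factors (lower), 1 Ctsc substrate, 0 class II genes and 0 V-ATPase genes (lower) were called. With at least 10 counts in every library, 0 MiT/TFE factors (higher) and 0 Ctsc substrates were called, in part because fewer genes were tested. By DESeq2, 1 Ctsc substrate and 8 class II genes were called, with its size factors 1 class II gene, and by limma 0 of either list. With trends removed, 0 MiT/TFE factors were lower, and 1 V-ATPase gene was higher and 2 were lower. The estimate of Glb1 was -0.011 with thinned counts, -0.061 with trends removed, and -0.14 (without mouse 476) to 0.11 with a mouse left out. The cause of these changes was not tested. Lengths of all exons, chosen after seeing the data, left the direction of the Ctsd share as it was.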

Other observations

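Endothelial markers were higher in ABT-263 skin for 5 of 6 genes tested (edgeR), where 12.4% of all genes tested were higher. Their summed level was 146 to 325 CPM in the DMSO mice and 542, 437 and 431 CPM in mice 476, 477 and 478. Pecam1, an adhesion molecule of endothelial junctions, was at 135, 57.4, 90.8 and 97.8 CPM in the DMSO mice and at 227, 177 and 179 CPM in the ABT-263 mice (log2 fold change 1.03, adjusted p = 0.0280). Of the remaining marker lists, 0 of 6 T cell genes (0 at an unadjusted p under 0.05, 1 by DESeq2) and 0 of 5 adipocyte genes (2 and 1) were called, 1 of 6 dendritic and Langerhans cell genes was higher, and 2 of 6 muscle genes were lower. Over all genes tested, 12.4% were higher and 11.7% lower.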
